A study of Mus musculus with 4 samples.

Results

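Beta cells hold some widely expressed genes at low levels. These genes, often called disallowed genes of the beta cell, were examined in Beta-TC-6 cells, a mouse pancreatic beta cell line, after transfection of siRNA against NF90. The 10 members are Ldha, Hk1, Slc16a1, Acot7, Oat, Rest, Lmo4, Cxcl12, Pdgfra and Igfbp4. They were chosen by name, and each was read from the probe set that carries its symbol alone, so all 10 were measured, among 22180 genes in all.

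Expression was profiled on 4 Affymetrix whole-transcript arrays. The siNF90 group (2 arrays) was transfected with a mixture of 3 siRNA duplexes against NF90, a double-stranded RNA-binding protein, and the siNTC group (2 arrays) with a negative control siRNA. Both groups were grown in medium with 25 mM glucose and 15% serum, and both received a lipid transfection reagent. Beta-TC-6 is a tumour line. The labels name no separate cultures behind the arrays of a group, so p-values cover no more than the variation among these arrays, possibly technical. The transcript of NF90 itself is not analysed here, and siNF90 stands for the label of those arrays. Ilf2, which encodes the partner protein NF45, was at 6.21 and 6.11 on the siNF90 arrays, against 6.52 and 6.36 on the siNTC arrays (log2, limma's adjusted p = 0.527).

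A beta cell couples glucose use to insulin release by sending nearly all pyruvate into its mitochondria. Lactate dehydrogenase A (Ldha) and the monocarboxylate transporter MCT1 (Slc16a1) would divert pyruvate or let it in from the blood. Hexokinase 1 (Hk1) works at glucose concentrations below those that start insulin release. Rest represses neuronal genes that beta cells share with neurons, and the other members belong to lipid and amino acid metabolism, transcription and signalling between cells. In mice, DNA methylation by Dnmt3a and microRNAs of the miR-29 family are known to take part in this silencing.

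Values are the authors' deposited log2 values. The median over probe sets was 1.65 and 1.66 on the siNF90 arrays and 1.68 and 1.66 on the siNTC arrays. The 2 arrays of a group differed by a median of 0.15 (log2) over all genes, in siNF90 and in siNTC alike, and precision is limited by how few arrays there are. In bulk RNA, fewer cells that hold a transcript and less of it per cell cannot be told apart. Of 13 beta cell markers measured of 15 listed, 12 lay at or above the median gene and Ucn3 below it, and 5 were higher and 8 lower in siNF90 (median difference -0.04). Ins2 was at 7.88 and 8.01 in siNF90 and 7.98 and 8 in siNTC. At an unadjusted p under 0.05 were Slc2a2, the glucose transporter GLUT2, with a difference of -1.08, Kcnj11, a potassium channel subunit (-0.45), and the transcription factors Nkx6-1 (0.45) and Mafa (0.38). None passed over all genes. Slc2a2 stood at 4.78 and 4.86 in siNF90, against 6 and 5.8 in siNTC, and ranked 10 of 22180 by its unadjusted p (limma's adjusted p = 0.342). Its part in the members' values was not tested. The line also held glucagon transcript (Gcg), at 8.88 and 8.78 in siNF90 and 8.5 and 8.75 in siNTC. Of the 10 members, 8 had a mean at or above 1.84, the median gene of the table, and Pdgfra and Rest lay below it. Oat, at 6.74 to 7.12, lay above the upper quartile of the probe sets on every array (3.77 to 3.82). Probe sets differ in their response, and background was not part of the deposited values. The data therefore cannot show which of the other members are silent in this line.

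No member passed limma's test over all genes, and neither did any other gene (0 of 22180, 0%, smallest adjusted p = 0.342). With a variance prior that depends on the level, an alternative below called the trend prior, 101 genes passed (0.455%), none of them a member. Slc2a2 was among them and lower (adjusted p = 0.0153). A difference above 0 was found for 8 members, beside 53.1% of all genes, and below 0 for 2, Cxcl12 and Pdgfra, beside 45.8%. At an unadjusted p under 0.05 there were 4 members, Ldha, Hk1 and Acot7 higher and Cxcl12 lower in siNF90, against 2281 genes or 10.3% of all genes. Higher genes at that p made up 5.87% of all genes and lower genes 4.41%. In 6 members the arrays of the groups did not overlap, 5 higher and 1 lower. Over all genes 39.8% did not overlap, 21.9% higher and 17.9% lower. Among genes at or above the median gene, where 8 members and all 6 of these lay, the share was 47.8%. In a fit of those genes alone, 15.9% were at an unadjusted p under 0.05, beside 4 of the 8 members. The median difference of the members was 0.19 (log2), beside 0.02 for all genes.

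**Figure D1:**
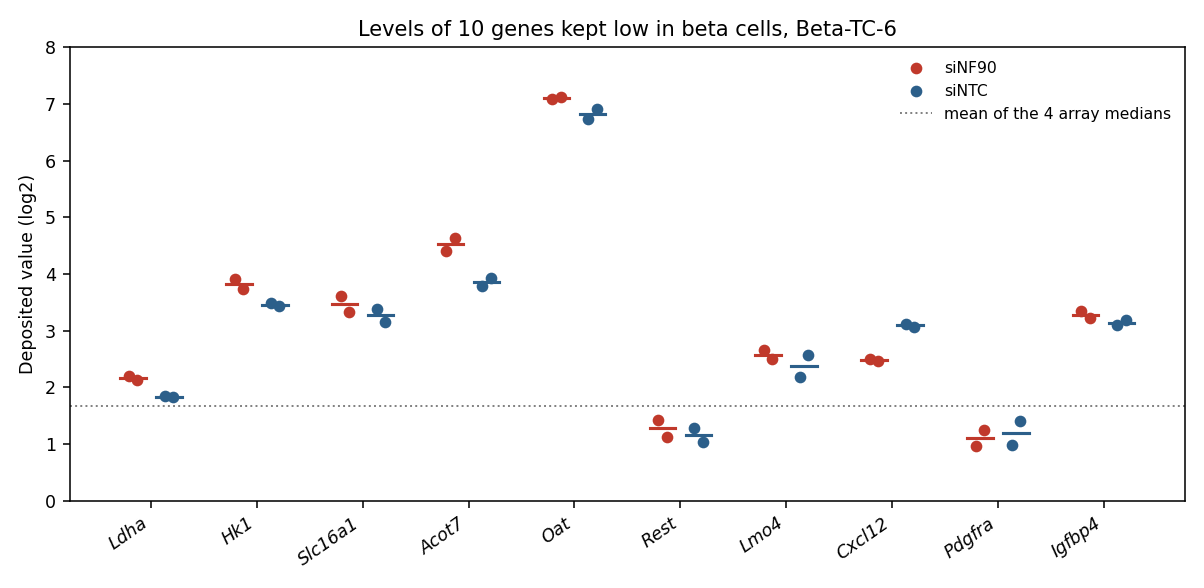
Deposited log2 value (vertical axis) of each of the 10 genes on the 2 siNF90 arrays (red, left) and the 2 siNTC arrays (blue, right), with bars at the group means and a dotted line at the mean of the 4 array medians. Acot7 and Cxcl12 show the widest gaps between the groups, in opposite directions, and the points of Slc16a1, Rest, Lmo4 and Pdgfra overlap.

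Among the metabolic members, Acot7 differed most. Acot7, a thioesterase that splits long-chain acyl-CoA into fatty acid and coenzyme A, is abundant in brain. It stood at 4.41 and 4.63 (log2) on the siNF90 arrays, against 3.78 and 3.92 on the siNTC arrays. Each siNF90 array exceeded each siNTC array, and the gap was wider than the spread within either group. The means were 4.52 ± 0.16 in siNF90 and 3.85 ± 0.10 in siNTC (SD, n = 2 each), a 1.59-fold difference. On the log2 scale that is 0.67 with a 95% interval from 0.33 to 1.01 (limma, adjusted p = 0.357, and 0.111 with the trend prior). By its unadjusted p Acot7 ranked 167 of 22180 genes, and 142 genes, itself included, had a difference of at least its size.

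Ldha, which turns pyruvate into lactate, stood at 2.2 and 2.12 on the siNF90 arrays, against 1.85 and 1.82 on the siNTC arrays. The groups did not overlap, and the arrays within each lay close together. The difference was 0.33 (log2, SE 0.12, 95% interval 0.04 to 0.61) and did not pass limma's test (adjusted p = 0.455). The siNTC level lay at the median gene of the table, and its distance from background is not known here.

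Hk1 stood at 3.91 and 3.74 on the siNF90 arrays, against 3.49 and 3.43 on the siNTC arrays, again without overlap. Its difference was 0.36 (log2, SE 0.13, 95% interval 0.06 to 0.68), a 1.29-fold higher mean in siNF90 (limma, adjusted p = 0.44). A further probe set carries Hk1 together with an antisense transcript and was not used.

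Slc16a1 was measured at 3.61 and 3.32 on the siNF90 arrays, against 3.39 and 3.16 on the siNTC arrays. The groups overlapped, and the arrays of a group differed by 0.29 in siNF90 and 0.23 in siNTC, more than the 0.19 between the group means. The 95% interval ran from -0.20 to 0.58 (adjusted p = 0.737), which holds 0 and changes of either sign. Without 1 array the difference ranged from 0.04 to 0.34.

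Oat, the mitochondrial enzyme that moves the amino group of ornithine to make glutamate and a precursor of proline, stood at 7.08 and 7.12 on the siNF90 arrays, against 6.74 and 6.91 on the siNTC arrays. The groups did not overlap, and the difference was 0.28 (log2, SE 0.13, 95% interval -0.03 to 0.58, adjusted p = 0.531).

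The promoters of Ldha, Slc16a1 and Cxcl12 are shown. Ldha and Slc16a1 encode the lactate steps, and Cxcl12 is the member that lay lower without overlap between groups. Each line holds the 250 bases before the start in RefSeq (GRCm38.p6), and the table held such a window for 9 of the 10 members, all but Rest. They are chr7:46845554-46845803 (plus strand) for the more upstream of the listed starts of Ldha, chr3:104638414-104638663 (plus strand) for Slc16a1 and chr6:117168285-117168534 (plus strand) for Cxcl12. Capitals mark ACGTG or its reverse complement CACGT, the letters at the core of hypoxia response elements and of E-boxes, and CACGTG, which holds both, was counted once.
Ldha: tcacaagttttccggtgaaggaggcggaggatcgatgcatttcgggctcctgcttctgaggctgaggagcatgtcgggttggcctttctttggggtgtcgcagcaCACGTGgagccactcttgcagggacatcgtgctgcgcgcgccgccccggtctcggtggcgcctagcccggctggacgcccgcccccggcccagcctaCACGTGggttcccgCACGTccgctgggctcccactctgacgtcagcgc
Slc16a1: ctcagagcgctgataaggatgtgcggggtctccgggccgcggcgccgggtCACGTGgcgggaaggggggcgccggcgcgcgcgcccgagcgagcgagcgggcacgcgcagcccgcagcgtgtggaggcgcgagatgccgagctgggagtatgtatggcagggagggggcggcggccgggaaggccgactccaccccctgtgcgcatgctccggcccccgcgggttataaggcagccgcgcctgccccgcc
Cxcl12: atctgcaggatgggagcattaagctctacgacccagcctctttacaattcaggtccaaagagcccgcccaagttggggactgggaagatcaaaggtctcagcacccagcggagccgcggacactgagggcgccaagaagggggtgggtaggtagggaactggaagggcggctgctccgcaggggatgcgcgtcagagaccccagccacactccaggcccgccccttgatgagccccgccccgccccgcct

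The Ldha window holds ACGTG at 3 places on either strand, the Slc16a1 window at 1 and the Cxcl12 window at 0. Of 32851 windows of that length in the RefSeq table, 16.6% hold at least 1 and 0.256% at least 3. The second listed start of Ldha has none in its window. Nor have the windows of Acot7, Hk1, Oat and Igfbp4, which also lay higher in siNF90, or of Pdgfra, which lay lower. Of the 3 listed starts of Lmo4, starts 2 and 3 hold 1 each and start 1 holds 0. Ldha, Slc16a1 and Lmo4, the members with a site in a window, thus lay higher, and those without lay on both sides. No member was called, and whether the sites go with direction was not tested. The GC box GGGCGG, on either strand and with overlapping matches counted once, stands at 4 places in the Cxcl12 window, 2 in that of Ldha and 1 in that of Slc16a1, and 32.7% of all windows hold it. CG dinucleotides, the bases that DNA methylation marks, number 25 in the Ldha window, 37 in Slc16a1 and 14 in Cxcl12, beside a median of 6 over all windows. The member windows not shown hold 9 (second Ldha start), 6 (Acot7), 4 (Pdgfra), 1 and 14 (Hk1), 14 (Oat), 22 (Igfbp4) and 25 to 44 (Lmo4). A match of letters is a description and not a binding site.

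The counterparts of the lactate and glucose members, from a list of 14 genes, were measured for 12. None passed over all genes, 7 lay higher and 5 lower in siNF90, and 5 did not overlap between groups, beside 39.8% of all genes (median difference 0.06). Slc16a3 (MCT4), a lactate exporter of glycolytic cells, had the largest difference of the list. It stood at 3.98 and 3.98 on the siNF90 arrays, against 2.96 and 3.15 on the siNTC arrays. That is 0.93 (log2, SE 0.13), a 1.9-fold higher mean in siNF90, with limma's adjusted p = 0.345, and it ranked 22 of 22180 by its unadjusted p. Emb (embigin), a membrane chaperone of monocarboxylate transporters, was at 8.46 and 8.55 in siNF90, against 8.93 and 8.87 in siNTC, a difference of -0.40 (log2, SE 0.12, adjusted p = 0.414). With the trend prior Emb was called lower (adjusted p = 0.0338), while Slc16a3 was at adjusted p = 0.057. With a gene's probe sets averaged, the difference of Emb was -0.16 (limma's adjusted p = 0.715), so its value rests on the probe set chosen. Basigin (Bsg), the chaperone of MCT1 and MCT4, differed by 0.10.

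Ldhb, the lactate dehydrogenase subunit that favours the making of pyruvate, overlapped between groups at 3.07 and 2.79 in siNF90 and 2.86 and 3.01 in siNTC. Its difference of -0.01 (log2, 95% interval -0.37 to 0.36) turned to 0.06 after quantile normalization. Hk2, the hexokinase of muscle and many tumours, differed by 0.07 (log2, 95% interval -0.24 to 0.37) at values below every array median. Hkdc1, a further hexokinase, differed by -0.30 and Ldhd, which oxidises D-lactate, by 0.23, and neither passed.

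**Figure D2:**
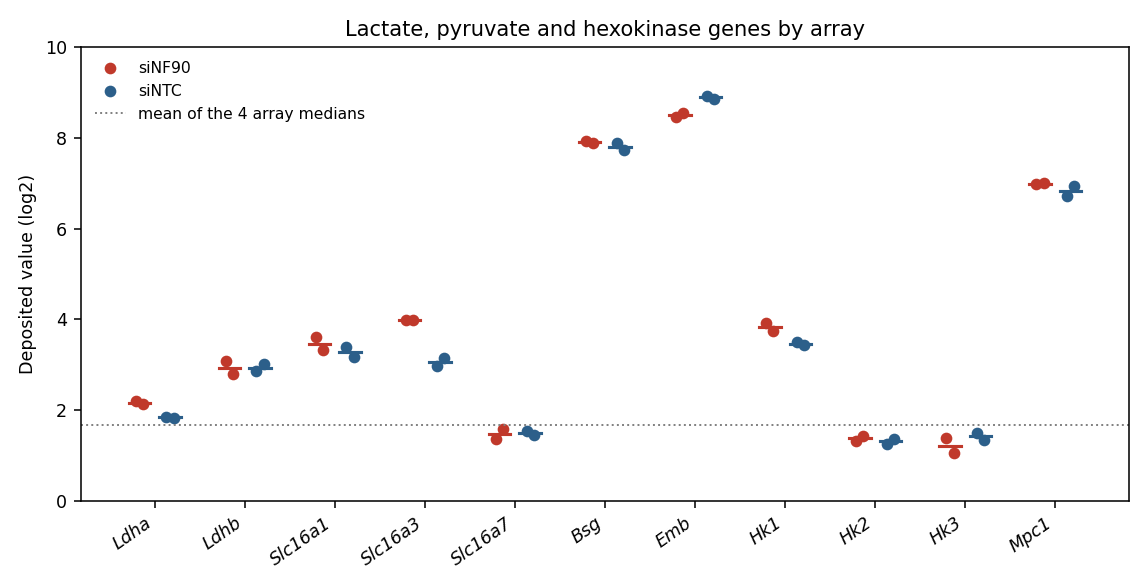
Deposited log2 value (vertical axis) of Ldha, Slc16a1, Hk1 and their counterparts on the siNF90 arrays (red, left) and the siNTC arrays (blue, right), with bars at the group means and a dotted line at the mean of the 4 array medians. Slc16a3 stands at 3.98 on both siNF90 arrays and at 2.96 and 3.15 on the siNTC arrays, while Emb lies lower in siNF90 and Ldhb overlaps.

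Of 13 genes of acyl-CoA thioesterases and ligases listed beside Acot7, 10 were measured. None passed, 4 lay higher and 6 lower, with a median difference of -0.03 (log2). Acot11, a thioesterase of fatty acyl-CoA, stood at 2.59 and 2.45 in siNF90, against 2 and 2.08 in siNTC, a difference of 0.48 (SE 0.12, adjusted p = 0.386). It was the only gene of that list whose groups did not overlap, beside 39.8% of all genes. Acot13 differed by 0.19, Acsl6 by -0.15 and Acot1 by -0.15, all within the spread between arrays.

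For Oat, 12 of 17 genes of ornithine, proline and polyamine metabolism were measured. None passed, 8 lay higher and 4 lower (median difference 0.10). Spermidine synthase (Srm) stood at 7.54 and 7.54 in siNF90, against 7.19 and 7.19 in siNTC (difference 0.35, SE 0.11, adjusted p = 0.432). Aldh18a1, which makes the same proline precursor from glutamate, differed by 0.20, Prodh, which degrades proline, by 0.20, and the arginase Arg2 by -0.23. These last 3 had intervals that include 0.

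Rest and Lmo4 are the transcriptional members, and neither separated the groups. Rest, the repressor that recruits corepressor complexes to neuronal genes, stood at 1.42 and 1.13 on the siNF90 arrays, against 1.28 and 1.04 on the siNTC arrays. These values lie below every array median, and without the first siNF90 array the difference of 0.12 became -0.03. The 95% interval ran from -0.27 to 0.50 (log2, adjusted p = 0.853). Lmo4, an adaptor of LIM domains that joins transcription factors through Ldb1, stood at 2.65 and 2.49 in siNF90, against 2.18 and 2.57 in siNTC. The siNTC arrays lay 0.39 apart, more than the difference of 0.20 between groups (95% interval -0.22 to 0.61, adjusted p = 0.749).

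REST works through its corepressors, of which 12 of 14 listed were measured. None passed, 5 lay higher and 7 lower, and the differences ranged from -0.15 (Hdac1) to 0.27 (Sin3b). Without 1 array Sin3b ranged from 0.10 (without the first siNF90 array) to 0.43 (without the second). Ctdspl differed by -0.12 and Hmg20b by 0.11. Of 28 genes known as REST targets in neurons or endocrine cells, 25 were measured, with 17 higher and 8 lower in siNF90 (median difference 0.17), and none passed over all genes. In 17 of the 25 the groups did not overlap, 13 higher and 4 lower, beside 39.8% of all genes and 47.8% of those at or above the median gene, where 23 of the 25 lay. The 2 most different targets went opposite ways. Stmn2, a microtubule regulator of growing neurites, stood at 4.2 and 4.34 in siNF90, against 5.14 and 5.02 in siNTC (difference -0.81, SE 0.13, adjusted p = 0.357). Vgf, a granule protein, was at 5.64 and 5.67 in siNF90, against 4.82 and 5.07 in siNTC (difference 0.71, SE 0.14, adjusted p = 0.357). Ptprn, a protein of the granule membrane, differed by 0.39, and Gria2, a glutamate receptor subunit, by -0.44. With the trend prior Stmn2 fell and Ptprn rose (adjusted p = 0.0415 and 0.0405).

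Of the LIM partners of Lmo4, 9 of 10 were measured, 8 higher and 1 lower (median difference 0.18), without a call. Tcf3, an E protein, stood at 3.54 and 3.39 in siNF90, against 2.97 and 2.93 in siNTC (difference 0.52, SE 0.12, adjusted p = 0.36). Lmo1, a close relative of Lmo4, was at 4.57 and 4.6 in siNF90, against 4.21 and 3.75 in siNTC, where the arrays lay apart (difference 0.60, adjusted p = 0.409). Isl1, an islet LIM factor, was at 8.7 and 8.7 in siNF90, against 8.45 and 8.48 in siNTC (difference 0.23, adjusted p = 0.553). Lmo3 differed by 0.21 at values below the array medians, and Ldb1 by 0.10 (adjusted p = 0.836).

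Among the signalling members, Cxcl12 was the one lower in siNF90 with a gap between the groups. Cxcl12, the chemokine that guides cells bearing the receptor Cxcr4, stood at 2.49 and 2.47 on the siNF90 arrays, against 3.12 and 3.06 on the siNTC arrays. Each siNF90 array was lower than each siNTC array, and the arrays within a group were nearly equal. The means were 2.48 ± 0.01 in siNF90 and 3.09 ± 0.04 in siNTC (SD, n = 2 each), 1.53-fold lower in siNF90. The log2 difference was -0.61 with a 95% interval from -0.90 to -0.32 (limma, adjusted p = 0.357, and 0.206 with the trend prior). By its unadjusted p it ranked 117 of 22180 genes, and 176 genes had a difference at or below it. Without 1 array the difference lay between -0.64 and -0.58.

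All 8 genes listed beside Cxcl12 (its receptors, the protease Dpp4 and other chemokines) were measured, 5 higher and 3 lower, and none passed. Cxcr4 stood at 2.27 and 2.81 in siNF90 and 2.02 and 2.57 in siNTC, with a wider spread within each group than between them (difference 0.24, 95% interval -0.37 to 0.86). Ackr3, a receptor that clears the chemokine, differed by 0.17 below the array medians. Cxcl16, a membrane-bound chemokine, was at 3.26 and 3.71 in siNF90, against 4.17 and 3.85 in siNTC (difference -0.53, SE 0.20, adjusted p = 0.463). Its difference was -0.30 without the first siNF90 array and -0.75 without the second. Dpp4, a protease that trims Cxcl12, was at 5.1 and 5.07 in siNF90, against 5.32 and 5.42 in siNTC (difference -0.28, SE 0.12, adjusted p = 0.495).

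Pdgfra, a growth factor receptor of mesenchymal cells that young beta cells lose with age in mice, stood at 0.97 and 1.25 on the siNF90 arrays, against 0.98 and 1.4 on the siNTC arrays. The groups overlapped at values below every array median, with a difference of -0.08 (95% interval -0.54 to 0.38, adjusted p = 0.927) whose sign turned to 0.06 without the first siNF90 array. Of 7 genes listed beside Pdgfra, PDGF ligands and receptors together with Kit, 5 lay higher and 2 lower, Kit among the lower, without a call. Pdgfrb differed by 0.01 (95% interval -0.45 to 0.47). Kit, a related receptor kinase, was at 5.02 and 5.21 in siNF90, against 5.5 and 5.55 in siNTC (difference -0.41, SE 0.13, adjusted p = 0.417).

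Igfbp4, a secreted protein that binds insulin-like growth factors, stood at 3.34 and 3.22 on the siNF90 arrays, against 3.09 and 3.18 on the siNTC arrays. The groups did not overlap, but the nearest arrays of the groups lay closer than the arrays within either group. The difference was 0.14 (log2, 95% interval -0.16 to 0.45, adjusted p = 0.746). All 14 genes of the insulin-like growth factor axis were measured, 8 higher and 6 lower, with none past the test. Igf2 was at 7.24 and 7.34 in siNF90, against 7.56 and 7.7 in siNTC (difference -0.34, SE 0.12, adjusted p = 0.457). Igf1 differed by -0.30, Insr, the insulin receptor, by -0.54 with arrays far apart in each group, and Igfbp2 by 0.46 at low values. Without 1 array Insr ranged from -0.80 to -0.28, and Igfbp2 from 0.21 without the second siNTC array to 0.70 without the first.

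Cxcl12, Pdgfra and Igfbp4 are also expressed by stromal cells, so stromal markers are given beside them. Of 10 markers, Pdgfrb among them, 7 lay higher and 3 lower, and 8 lay below the median gene. Their summed level on the linear scale, Vim included, was 34.1 and 29.9 in siNF90, against 28.3 and 27.7 in siNTC. Vim had the highest level on every array and the largest difference of these markers, and the sum without it was not computed. None of the markers was at 0. Vim, an intermediate filament protein not limited to stroma, stood at 3.42 and 2.93 in siNF90, against 2.66 and 2.46 in siNTC, while Col1a1, Col3a1, Dcn and Lum lay below the array medians. The Vim difference of 0.615 ranged from 0.297 to 0.67 under the alternatives that kept all arrays, and from 0.37 to 0.86 without 1 array. The arrays are of a cell line, and whether any stromal RNA adds to these members' values was not tested. Endothelial markers lay below the median gene in 6 of 6 cases and exocrine or duct markers in 8 of 9. Of 7 blood markers, 5 lay below it, Ptprc (CD45) among them, and Cd68 and C1qa, genes of macrophages, above it. Cd68 stood at 4.44 and 4.48 in siNF90, against 3.32 and 3.35 in siNTC (difference 1.12, SE 0.12, limma's adjusted p = 0.342, and 0.0217 with the trend prior), and ranked 4 of 22180 by its unadjusted p. C1qa differed by 0.43 (adjusted p = 0.409). Of the other 5, Adgre1 differed by -0.03, Ptprc by -0.015, Itgam by 0.08 and Lyz2 by 0.11. Csf1r differed by 0.37, with the siNF90 arrays apart at 1.95 and 1.07. The summed level of the 7 markers, in which Cd68 and C1qa had the highest levels, was 62.3 and 62.9 in siNF90, against 42.5 and 42 in siNTC. Whether any blood cell RNA adds to the members' values was not tested.

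**Figure D3:**
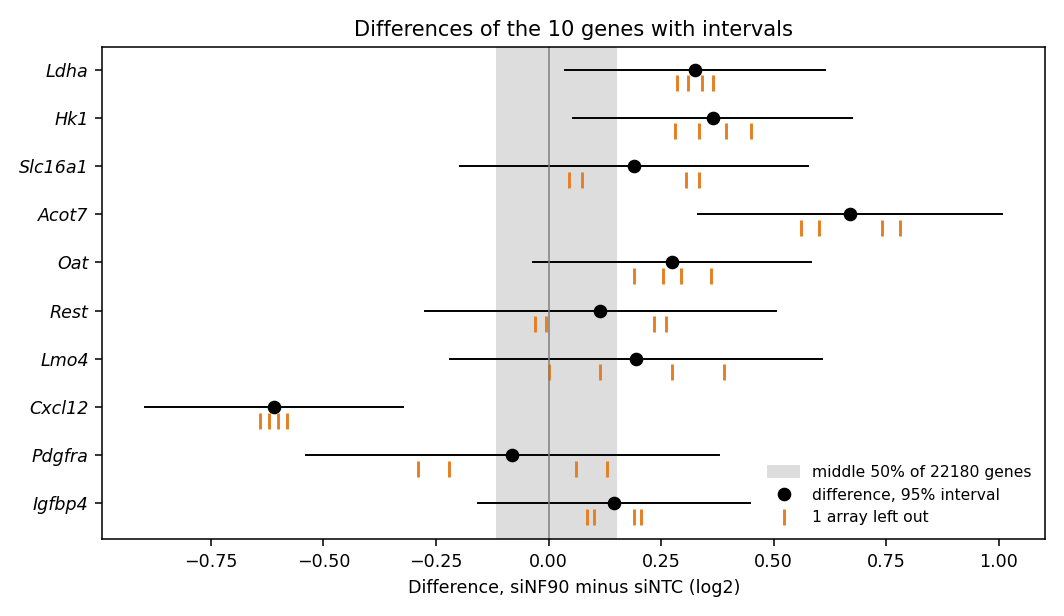
Difference in log2 value, siNF90 minus siNTC (horizontal axis), of each of the 10 genes, with 95% intervals of limma's fit, orange marks for the fits without 1 array and a grey band for the middle 50% of all genes. The intervals of Acot7, Ldha, Hk1 and Cxcl12 leave out 0 before adjustment over genes, and the marks of Rest and Pdgfra fall on either side of 0.

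The broader class of genes kept low in beta cells lay on both sides of 0. All 23 further genes listed were measured, 14 higher and 9 lower in siNF90 (median difference 0.06), and 16 of them lay below the median gene of the table. None passed over all genes. At an unadjusted p under 0.05 were 1 higher gene, Tst, and 2 lower genes, Arap2 and Zcchc24, beside 10.3% of all genes. In 10 of the 23 the groups did not overlap, 6 higher and 4 lower, beside 39.8% of all genes. Tst, a mitochondrial sulfur transferase, stood at 2.86 and 2.55 in siNF90, against 2.12 and 2.12 in siNTC (difference 0.58, SE 0.15, adjusted p = 0.371). Arap2, a regulator of small GTPases, was at 4.37 and 4.44 in siNF90, against 4.93 and 4.84 in siNTC (difference -0.48, SE 0.12, adjusted p = 0.371). Zcchc24 differed by -0.42 at values below every array median. Maf, a transcription factor of mouse alpha cells, was at 6.32 and 6.56 in siNF90, against 6.07 and 6.18 in siNTC (difference 0.32, SE 0.14, adjusted p = 0.511).

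Genes of the machinery that silences chromatin, listed together with the Tet genes that act against DNA methylation, were measured for 21 of 22. Of these, 13 lay higher, the Tet genes among them, and 8 lower (median difference 0.06), with no call. Dnmt3a, a DNA methyltransferase that silences Ldha and Hk1 in mouse beta cells, stood at 5.81 and 5.78 in siNF90, against 5.53 and 5.76 in siNTC (difference 0.15, 95% interval -0.18 to 0.48). Ezh2, the enzyme of Polycomb complex PRC2, was at 6.47 and 6.51 in siNF90, against 6.87 and 6.85 in siNTC (difference -0.37, SE 0.12, adjusted p = 0.417), and its partner Suz12 differed by -0.28. Cbx2, a reader in the complex PRC1, differed by 0.79, at 3.77 and 3.03 in siNF90, against 2.8 and 2.43 in siNTC, with a wide spread between the siNF90 arrays. Without 1 array its difference ranged from 0.41 to 1.16. Ring1 differed by 0.32, with an interval that included 0, and by 0.11 without the first siNTC array and 0.53 without the second.

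The miR-29 family represses Slc16a1 in mouse islets. The mature sequences of the measured genes, from RefSeq (GRCm38.p6) and shown for their common seed (bases 2 to 8, in capitals), lie on the minus strand at chr6:31062673-31062694 for Mir29a and chr6:31063025-31063047 for Mir29b-1.
miR-29a-3p: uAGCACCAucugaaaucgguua
miR-29b-3p: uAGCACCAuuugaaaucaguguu

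Mir29a stood at 1.26 and 1.36 on the siNF90 arrays, against 1.48 and 2.06 on the siNTC arrays. The difference of -0.46 (log2, SE 0.21, adjusted p = 0.519) rested mostly on the second siNTC array, without which it was -0.17. Mir29b-1 overlapped between groups, at 0.12 and 0.67 in siNF90 and 0.91 and 0.41 in siNTC. Apart from Mir29a on the second siNTC array, these values lie below the array medians. Mir124a-2 and Mir124a-3, listed beside them, differed by 0.10 and 0.14. All of these are values of the genes' probe sets on whole-transcript arrays, and mature microRNA was not measured separately.

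**Figure D4:**
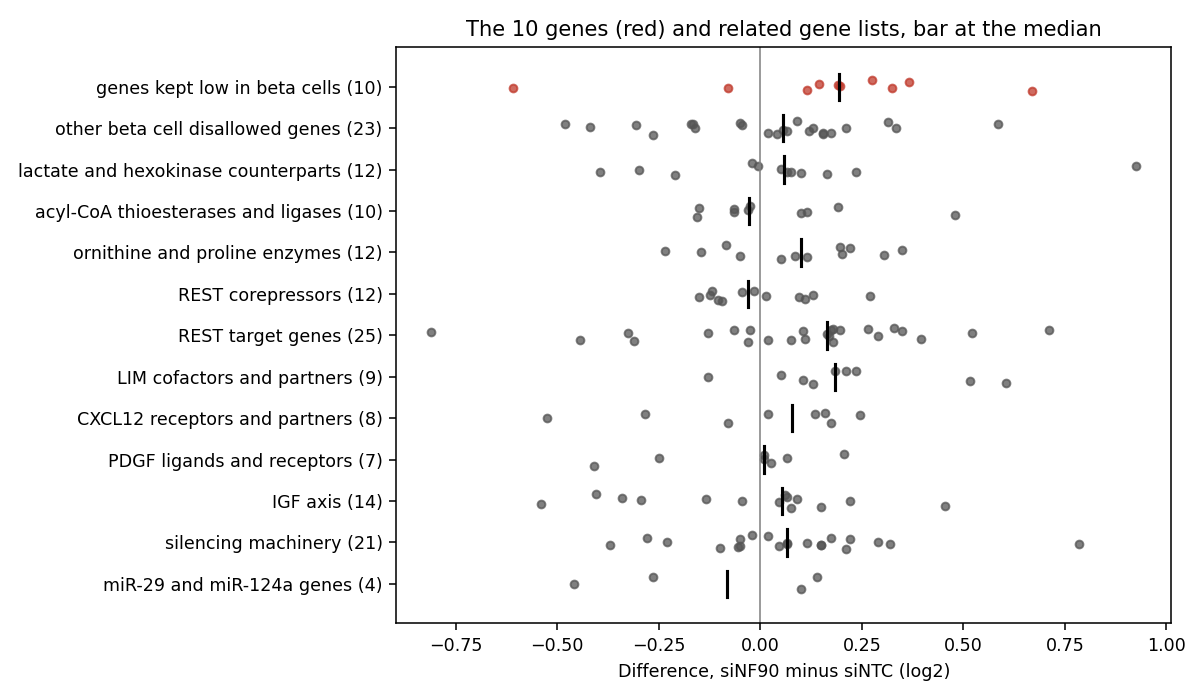
Difference in log2 value, siNF90 minus siNTC (horizontal axis), of every measured gene of the 10 genes (red) and of the related lists (grey, number measured in brackets), with a black bar at each median. The medians of the related lists lie between -0.08 and 0.18, beside 0.19 for the 10 genes, and single genes such as Slc16a3 and Stmn2 stand out to either side.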

How the data were processed

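The authors deposited 1 table of log2 values for 41345 probe sets on each of 4 arrays. Per the submitters' processing notes they used Transcriptome Analysis Console; for its version, background correction and normalization, no source used here gives details. The log base is not stated, and base 2 was taken because each array holds values above 11.09, the natural log of the highest value a scanner of this kind writes. The platform annotation gave 1 symbol to 23521 probe sets, several to 1814 and none to 16010. A gene with several probe sets was read from the one with the highest mean, which left 22180 genes.

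All genes were fitted in R 4.3.3 with lmFit and eBayes of limma 3.58.1, with 1 prior variance for all levels, as siNF90 minus siNTC (two-sided; Benjamini-Hochberg over all genes; threshold 0.05; no filter). With 2 arrays a group an exact permutation test gives at least p = 0.33, so none was run. The fit was tested on simulated data.

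Every member is named, with the 4 smallest p of each list of over 8 genes, genes of shorter lists and fixed counterparts such as Ldhb and Cxcr4; cell type markers and other names were picked after their values were seen. The members and lists were chosen with earlier results of these data known. Nothing states that a replicate number marks a shared culture, and deviations of same-numbered arrays correlated at -0.02. Alternatives were a replicate block, a trend or robust prior, median centring, quantile normalization, all probe sets fitted, averaged probe sets per gene, only genes at or above the median level, and fits without 1 array.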

Additional observations from a re-analysis of the deposited data

How the results depend on the processing

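No member was called under any alternative run, and the count of genes called was 0 under all of them except the variance prior with a trend, where it was 101 (52 higher, 49 lower). That prior called 5 of the listed genes, Slc2a2 (-1.08, adjusted p = 0.0153), Cd68 (1.12, adjusted p = 0.0217), Emb (-0.40, adjusted p = 0.0338), Ptprn (0.39, adjusted p = 0.0405) and Stmn2 (-0.81, adjusted p = 0.0415). With the replicate number as a block, 0 genes were called. At an unadjusted p under 0.05 were then 8.44% of all genes and 3 members, against 10.3% and 4 members without the block. Leaving out 1 array gave 2 to 3 such members, 2 without the first siNF90 array and without either siNTC array. The share of all genes at that p was also below 10.3% in each fit without 1 array, so the fall was not limited to the members. Those fits gave 6 to 10 members without overlap, 6 without the first siNF90 array, where 69.6% of all genes did not overlap. Without the second siNF90 array there were 10 such members, beside 69.4% of all genes. Without the first siNTC array there were 9, beside 67.5%, and without the second 7, beside 69%. Without 1 array, the difference moved by over 1.5 times or past 0 for 5 of the 10 members (Slc16a1, Lmo4, Pdgfra, Rest and Igfbp4, the last from 0.085 to 0.205) and for 30 of 59 other genes tried. Across those fits Pdgfra ranged from -0.29 to 0.13, Rest from -0.03 to 0.26, Acot1 from -0.395 to 0.085, Cxcr4 from -0.03 to 0.52, Hdac1 from -0.305 to 0.005, Ldb1 from -0.005 to 0.215, Ldhb from -0.14 to 0.14, Mir124a-3 from -0.085 to 0.365, Mir29b-1 from -0.54 to 0.01 and Pdgfrb from -0.24 to 0.27. The difference of Ldhb was 0.057 after quantile normalization and 0.01 with arrays centred on their medians. The cause of these turns was not tested. In those fits the lone array of a group is assumed to vary like the other group, so they cannot show stability. The other members kept their direction in every fit run, apart from Lmo4, which was at 0 without the first siNTC array. Values near the array medians may be limited by background, which the table does not report.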
